A study of Mus musculus with 2 samples.

Results

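The genes described here encode 8 cell-surface proteins that are drug, antibody or imaging targets in prostate cancer, and were taken by name from 21887 protein-coding genes. The neuroendocrine targets are Dll3, Ncam1 and Sez6 (3 genes), and the adenocarcinoma targets are Psca, Folh1, Steap1, Steap2 and Cd276 (5 genes). For each gene, every ATAC-seq peak in its mm10 gene body with 50 kb on either side, here its window, was read from both deposited peak lists. The windows held 4 of the 5735 peaks of the W2 library and 18 of the 22570 peaks of the M6 library, counting a peak in the overlapping windows of Steap1 and Steap2 once. ATAC-seq finds open chromatin by the insertion of sequencing adapters with a transposase. Both libraries came from prostate tumor cells of C57BL/6 mice given tamoxifen, for 2 weeks (W2, the early stage of progression toward neuroendocrine prostate cancer) or for 6 months (M6, the late stage). The driver alleles, the animals' ages, the number of animals per library and whether the cells were cultured were not stated in the labels used here. With 1 library per time point no test between W2 and M6 was possible, and the intervals below cover counting error only.

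An antibody or radioligand reaches only cells that display its antigen, and some of these antigens differ between tumor lineages. Prostate adenocarcinoma, a disease of luminal cells, is known for surface antigens such as prostate-specific membrane antigen, encoded by Folh1, and the STEAP metalloreductases. Neuroendocrine prostate cancer often loses these and gains surface proteins of nerve and neuroendocrine cells, such as the Notch ligand DLL3 and the adhesion molecule NCAM1. An open region at a gene's start usually accompanies use of that gene, although open chromatin alone does not measure its expression.

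A peak within 1 kb of an own gene end was found in W2 at 1 of the 8 genes (Steap1) and in M6 at 4 (Ncam1, Steap1, Steap2 and Cd276). Over all protein-coding genes these shares were 18.4% in W2 and 39.7% in M6, against 12.5% and 50% of the members. The shares of the members were thus near the background in both libraries. By group, an own-end peak was present in M6 at 1 of 3 neuroendocrine and 3 of 5 adenocarcinoma targets, and in W2 at 0 of 3 and 1 of 5. Dll3, Sez6, Psca and Folh1 had none in either library. Most of the peaks in the windows lay at ends of other genes. Of the 18 M6 peaks, 4 lay at a member's own end, 10 within 1 kb of an end of another gene, and 4 away from gene ends. The 4 W2 peaks split into 1 and 3, with 0 away from gene ends.

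RefSeq start regions, from 250 bases before to 50 bases after an annotated start, were at hand for 5 of the 8 genes (assembly GRCm38.p6, the assembly of mm10). They are printed because the presence or absence of a peak at these starts carries the result. All are on the minus strand and read 5′ to 3′. In the Steap1, Steap2 and Cd276 sequences, capitals mark the bases inside the M6 peak. In the Dll3 sequence they mark a CAGCTG, and in the Folh1 sequence nothing is marked. For Steap2, the start shown is the one of 3 annotated starts that the peak touched.
Steap1 start, chr5:5749268-5749567, minus strand: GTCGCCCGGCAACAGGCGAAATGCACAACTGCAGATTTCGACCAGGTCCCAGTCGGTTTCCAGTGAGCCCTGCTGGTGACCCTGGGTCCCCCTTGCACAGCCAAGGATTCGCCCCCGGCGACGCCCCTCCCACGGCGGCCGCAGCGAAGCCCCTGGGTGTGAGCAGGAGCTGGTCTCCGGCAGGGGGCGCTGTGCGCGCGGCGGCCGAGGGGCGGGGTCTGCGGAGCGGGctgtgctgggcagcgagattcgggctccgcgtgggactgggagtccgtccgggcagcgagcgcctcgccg
Steap2 start, chr5:5694040-5694339, minus strand: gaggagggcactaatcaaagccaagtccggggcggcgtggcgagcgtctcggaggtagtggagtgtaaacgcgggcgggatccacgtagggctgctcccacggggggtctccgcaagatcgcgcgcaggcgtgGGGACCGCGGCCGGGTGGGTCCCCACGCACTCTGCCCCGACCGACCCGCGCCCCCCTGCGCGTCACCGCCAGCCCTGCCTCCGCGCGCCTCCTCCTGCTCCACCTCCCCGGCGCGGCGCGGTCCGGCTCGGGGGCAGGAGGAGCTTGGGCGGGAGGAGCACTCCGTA
Cd276 start, chr9:58554984-58555283, minus strand: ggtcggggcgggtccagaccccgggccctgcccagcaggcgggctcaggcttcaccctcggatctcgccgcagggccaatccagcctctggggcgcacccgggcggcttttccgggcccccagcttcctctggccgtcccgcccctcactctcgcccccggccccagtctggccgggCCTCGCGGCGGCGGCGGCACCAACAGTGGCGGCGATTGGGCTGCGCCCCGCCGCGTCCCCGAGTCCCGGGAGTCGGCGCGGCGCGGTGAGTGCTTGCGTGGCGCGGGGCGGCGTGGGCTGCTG
Dll3 start, chr7:28301736-28302035, minus strand: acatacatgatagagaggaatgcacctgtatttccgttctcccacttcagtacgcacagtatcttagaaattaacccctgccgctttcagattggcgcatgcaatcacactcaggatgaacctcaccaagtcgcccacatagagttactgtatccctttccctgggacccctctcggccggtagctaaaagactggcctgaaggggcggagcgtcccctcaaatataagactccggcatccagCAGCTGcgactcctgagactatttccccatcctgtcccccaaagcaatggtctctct
Folh1 start, chr7:86775815-86776114, minus strand: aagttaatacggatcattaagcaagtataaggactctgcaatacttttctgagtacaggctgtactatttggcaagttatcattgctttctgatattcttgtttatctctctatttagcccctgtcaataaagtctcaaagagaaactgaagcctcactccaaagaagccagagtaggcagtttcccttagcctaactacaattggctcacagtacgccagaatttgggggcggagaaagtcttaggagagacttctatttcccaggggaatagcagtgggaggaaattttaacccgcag

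The start regions with a peak were rich in CpG. The Steap1 region was 72.3% G or C, with a CpG count of 0.84 times that expected from its base composition, the shown Steap2 region 74.3% with a ratio of 0.94, and the Cd276 region 78.3% with a ratio of 0.85. The start regions without a peak were poorer: Dll3 had 52.0% G or C and a ratio of 0.57, and Folh1 42.0% and 0.30. Over the 21263 start regions of protein-coding genes in the same table the median ratio was 0.57. Of those with a ratio of at least 0.6, 30.0% overlapped a W2 peak and 62.0% an M6 peak. Of those under 0.6, 4.29% and 11.6% did. By the cut of 0.6, the 3 members with a start peak in M6 were of the class that often had one, and the 2 without were of the other. Dll3 lay near this cut and at the median, with 50.4% of start regions below its ratio. The Steap2 start was chosen because the peak touched it. A link between CpG content and the members' peaks was not tested. The other 2 annotated starts of Steap2 had ratios of 0.53 and 0.67 and no peak in either library.

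A search of these regions on both strands covered 2 motifs. CAGCTG, an E-box of the kind bound by basic helix-loop-helix factors, was in the Dll3 region and in none of the other 6 start regions of the members, and 15.6% of all start regions held it. The forkhead motif TGTTTAC (3.01% of all) was in none of the 7. A match describes these letters only.

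**Figure D1:**
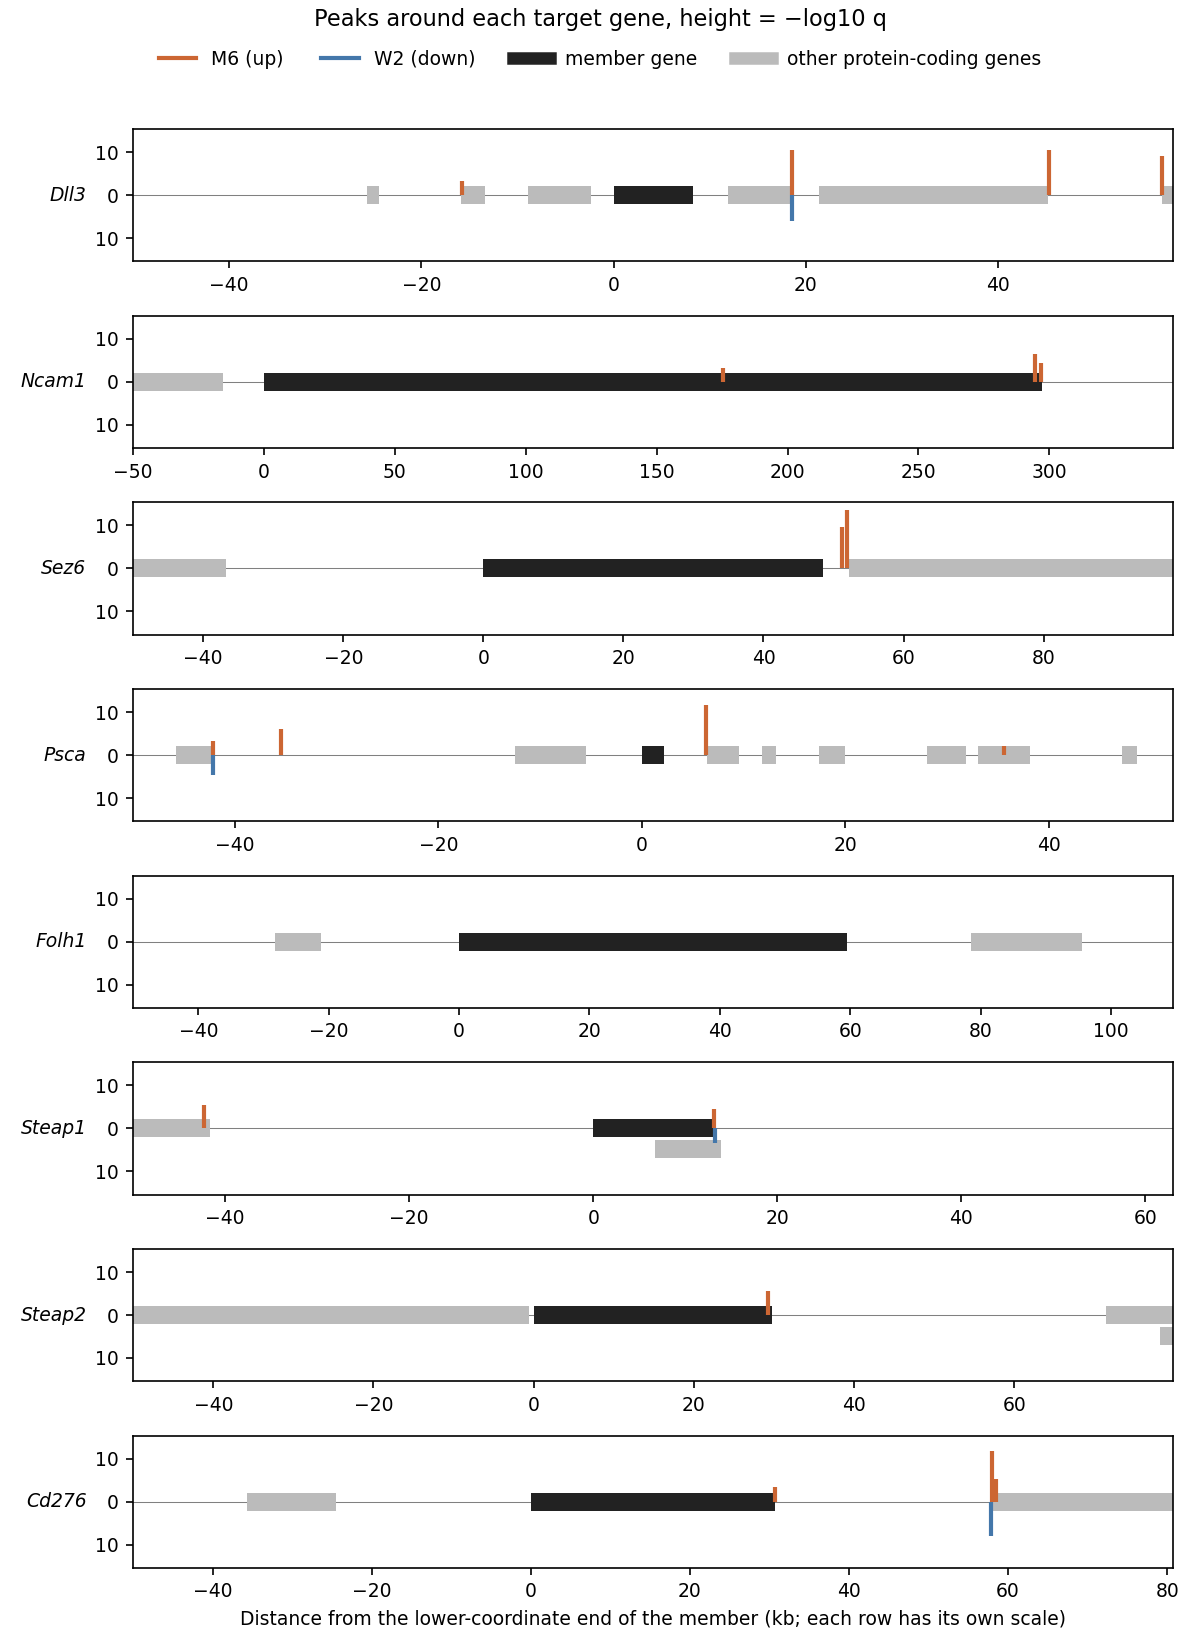
Each row shows the window of a member, with distance from its lower-coordinate end in kb on the horizontal axis (its own scale in each row). Vertical lines are peaks with a height equal to the −log10 q of the authors, M6 upward and W2 downward; black bars are the member and grey bars other protein-coding genes. Peaks stand mostly at the ends of grey bars, and the Folh1 row is empty.

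Among the neuroendocrine targets, Dll3 encodes an inhibitory Notch ligand that is the target of bispecific T-cell engagers in small-cell cancers. Its gene (chromosome 7, 28293555 to 28301785) held no peak in either library. The nearest was 10.3 kb from the gene body in W2 and 10.4 kb in M6. That site is the end of Timm50, which encodes a subunit of the mitochondrial import machinery (W2 peak 28311982 to 28312213, −log10 q 5.97; M6 peak 28311979 to 28312256, −log10 q 10.5). The q is the authors' p for the summit over local background, adjusted within its own library. It is not a height above background, and W2 and M6 values of −log10 q are not on one scale. The other 3 M6 peaks of the window lay at ends of Eid2b (−log10 q 3.30), Supt5, a transcription elongation factor (10.4), and Rps16, a ribosomal protein (9.17). The Dll3 window thus held 1 peak in W2 and 4 in M6, with none within 10 kb of Dll3 itself.

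Ncam1, which encodes a neural cell adhesion molecule also carried by nerve cells, was the only neuroendocrine target with peaks inside its gene. The 297 kb gene (chromosome 9, 49502129 to 49799393) had 0 W2 peaks in its window and 3 M6 peaks, all inside the gene. The strongest, at 49796677 to 49796983, lay 2564 bp inside the higher-coordinate gene end, with a fold of 4.13 over local background, a −log10 q of 6.54 and a summit pileup of 24 tags (exact Poisson 95% interval 15.4 to 35.7). The pileup is the number of tags over the summit, recovered from the authors' fold and p. The own-end peak, at 49798884 to 49799083, was weaker (19 tags, 11.4 to 29.7; −log10 q 4.44), and a peak deep in the gene, at 49677432 to 49677682, had 13 tags (6.92 to 22.2) and a −log10 q of 3.30. All 3 stood below the M6 median −log10 q of 6.92. The nearest W2 peak was 517 kb away, at Usp28. Its peak number was ordinary for its length. The 231 genes with a window within 10% of its length had a median of 4 M6 peaks and 0 W2 peaks, and 32.0% of them had fewer M6 peaks than Ncam1.

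Sez6 encodes a neuronal membrane protein that is an antibody-drug target in small-cell cancers. It had no peak in the gene (chromosome 11, 77930587 to 77979052) or at its ends in either library. Its 2 M6 peaks were at the neighbouring Phf12, which encodes a PHD finger protein of a corepressor complex. One, at 77982383 to 77982792, had the highest −log10 q of all peaks in the members' windows (13.7; fold 5.37; 37 tags, 26.1 to 51.0), and the other lay 2.81 kb from the Sez6 end (9.76; 32 tags). The window had 0 W2 peaks, and the nearest W2 peak was 136 kb from the gene, inside Fam222b.

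Steap1 was the only target with an own-end peak in both libraries. It encodes a membrane protein of the six-transmembrane STEAP family that is raised in prostate cancer. Its start peak covered 5749371 to 5749660 of chromosome 5 in W2 (15 tags, 8.40 to 24.7; fold 4.04; −log10 q 3.51) and 5749338 to 5749592 in M6 (16 tags, 9.15 to 26.0; fold 4.09; −log10 q 4.43). The pileups differed by 1 tag, within counting error. The peaks covered 197 and 230 of the 300 bases of the start region. They also lie at an end of Gm46900, a predicted gene that overlaps Steap1, and the lists do not tell the genes apart. The site was weak on both lists, at percentile 9.39 of the W2 peaks and 21.6 of the M6 peaks by −log10 q.

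Steap2, a metalloreductase gene that lies beside Steap1, had a peak in M6 only, at 5693992 to 5694206 of chromosome 5 (18 tags, 10.7 to 28.4; fold 4.42; −log10 q 5.54). It covered 167 bases of the start region shown and lay 582 bp inside the gene. The W2 list had no peak in the Steap2 window. The same M6 peak falls in the Steap1 window, whose 2 M6 peaks are therefore the 2 STEAP starts.

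Cd276 encodes the immune checkpoint protein B7-H3, which is found on tumor cells of many kinds and also on stroma. Its start peak was seen in M6 only, at 58554893 to 58555106 of chromosome 9, 47 bp from the gene end and over 123 bases of the start region (16 tags, 9.15 to 26.0; fold 3.48). With a −log10 q of 3.34 it was the weakest own-end peak of the members in M6. The remaining peaks of its window, 1 in W2 (−log10 q 7.97) and 2 in M6 (11.8 and 5.34), stood at an end of Nptn, which encodes the adhesion protein neuroplastin, 27.2 to 27.7 kb from Cd276.

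Psca encodes a GPI-anchored antigen of the Ly6 family that is raised in many prostate cancers. Its small gene (chromosome 15, 74714839 to 74717065) and its ends had no peak in either library, although its window held 1 W2 and 4 M6 peaks. The nearest M6 peak was 4.08 kb away at an end of Them6 (74720975 to 74721289; 33 tags, 22.7 to 46.3; −log10 q 11.6), and W2 had none there. The W2 peak, 42.2 kb away, was at an end of the neuronal immediate early gene Arc (−log10 q 4.65), where M6 had one with a −log10 q of 3.28. The last 2 M6 peaks lay 6.76 kb from Arc (6.05) and inside Lynx1, a Ly6-family modulator of nicotinic receptors (2.03).

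Folh1 had no peak in its window in either library. The gene (chromosome 7, 86716525 to 86776053) encodes prostate-specific membrane antigen, the folate hydrolase that prostate radioligands bind, best known in the mouse from kidney and brain. The nearest peak was 1983 kb from the gene in W2 and 1960 kb in M6, and in both cases Zfand6 was the gene closest to it. Only 465 of the 21887 genes (2.12%) were farther from an M6 peak, and 852 (3.89%) from a W2 peak. Of 2228 genes with a window within 10% of the length of Folh1's, 14.5% had no M6 peak and 45.1% no W2 peak. Its window neighbours are an olfactory receptor gene, Olfr292, and a vomeronasal receptor gene, Vmn2r77, neither with a peak.

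**Figure D2:**
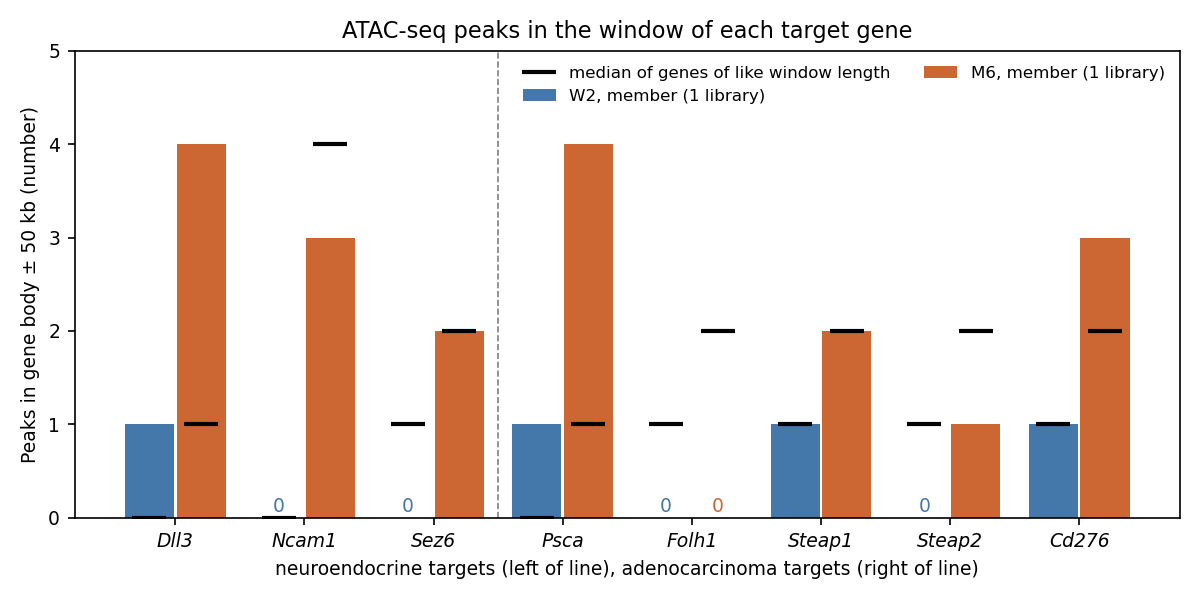
Bars give the number of peaks in each window (vertical axis) for W2 and M6, 1 library each, and black ticks the median over genes whose window length is within 10% of the member's. There are 7 genes with more M6 than W2 peaks, Steap1 only through the Steap2 start peak, which lies in both windows. Ncam1, Folh1 and Steap2 lie under their M6 tick, and Dll3, Psca and Cd276 lie above it.

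Between the time points, 7 of the 8 windows (87.5%) had more peaks in M6 than in W2 and Folh1 had 0 in both. Steap1 is among the 7 only through the Steap2 start peak, which lies in both windows. Over all protein-coding genes 64.2% had more, and 8 genes are too few to tell the members' share from this background. A window peak was present in W2 at 4 of 8 members and 48.3% of all genes, and in M6 at 7 of 8 members and 74.4% of all genes. Inside the gene body, 0 of 8 members had a W2 peak against 20.6% of all genes, and 3 of 8 (Ncam1, Steap2 and Cd276) an M6 peak against 48.1%. The median over the members was 0.38 peaks per 100 kb of window in W2 and 1.56 in M6, and over all genes 0 and 1.4.

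Both groups of targets had more peaks in M6 than in W2. The 3 neuroendocrine windows (654 kb) held 1 W2 and 9 M6 peaks, or 0.15 per 100 kb (exact Poisson 95% interval 0.0039 to 0.85) and 1.38 (0.63 to 2.61). The 5 adenocarcinoma windows (577 kb without double counting) held 3 W2 and 9 M6 peaks, or 0.52 (0.11 to 1.52) and 1.56 (0.71 to 2.96). The pooled rise was 1.22 peaks per 100 kb in the first group and 1.04 in the second. Taken per gene, the median rise was 1.35 peaks per 100 kb over the neuroendocrine and 0.88 over the adenocarcinoma targets, beside a median of 0.86 over all genes. All 3 neuroendocrine and 4 of the 5 adenocarcinoma targets had more peaks in M6, Steap1 only through the Steap2 start peak in its window. The intervals overlap widely in each library, and genes are not replicates, so the difference between the groups was not tested. Restricted to peaks with the member as the nearest protein-coding gene, the rises were 3 peaks, all at Ncam1, and 2 peaks, at Steap2 and Cd276.

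The M6 peaks of the windows covered a wide range of strength. Of the 18, 7 had a −log10 q above the library median, all of them at ends of other genes, and 5 of these had no W2 counterpart. With only peaks of a −log10 q of at least 5 counted in both libraries, the rise was 5 peaks in the neuroendocrine and 4 in the adenocarcinoma windows. This limit was easier to pass in M6, because q is adjusted within each library. The W2 peak at Arc (−log10 p 8.28) had a −log10 q of 4.65 and failed. An M6 peak at Nptn (−log10 p 8.36) had 5.34 and passed. The part of this in the rise was not tested. When M6 was limited to its 5735 strongest peaks by −log10 q (at least 10.8), the number in W2, the neuroendocrine windows held 1 peak in each library and the adenocarcinoma windows 3 in W2 and 2 in M6. The M6 peaks that passed were those at Phf12, Them6 and Nptn, and none was at an end of a member. This setting removes the excess of M6 peaks over the whole list by construction.

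**Figure D3:**
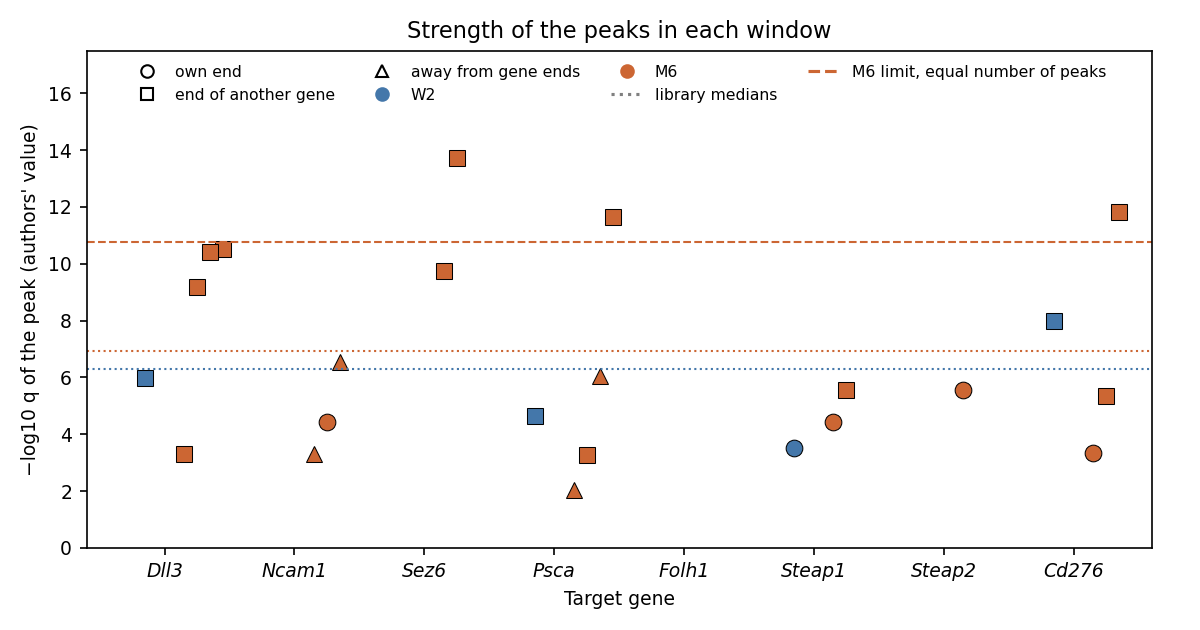
Points are the peaks of each window by the authors' −log10 q (vertical axis), coloured by library, with circles for a member's own end, squares for the end of another gene and triangles for the rest. Dotted lines are the library medians (6.30 in W2 and 6.92 in M6) and the dashed line is the M6 value of 10.8 that leaves as many peaks as W2 has; circles and triangles lie below the M6 median.

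All 4 W2 peaks had an M6 counterpart overlapping by at least 1 bp (100%, exact interval 39.8 to 100%), and these made up 4 of the 18 M6 peaks (22.2%, 6.41 to 47.6%). At these sites the tags over the summit were more numerous in M6, by 8 at Timm50 (28 against 20), 2 at Arc (22 against 20), 1 at Steap1 (16 against 15) and 6 at Nptn (28 against 22). In log2 terms the differences were 0.49, 0.14, 0.09 and 0.35. The median over 3281 gene-end sites on both lists was 0.58, with the middle 90% from −0.13 to 1.20. The Steap1 difference was larger than at 12.3% of those sites, and at each of the 4 sites the counting intervals of the libraries overlapped. Pileups are not adjusted for library depth or local background. At Arc the fold over local background was lower in M6 (2.93 against 4.01), with a background of 6.84 tags against 4.24 in W2. The fold was higher in M6 at Timm50 (5.33 against 4.71), Steap1 (4.09 against 4.04) and Nptn (5.92 against 5.48).

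**Figure D4:**
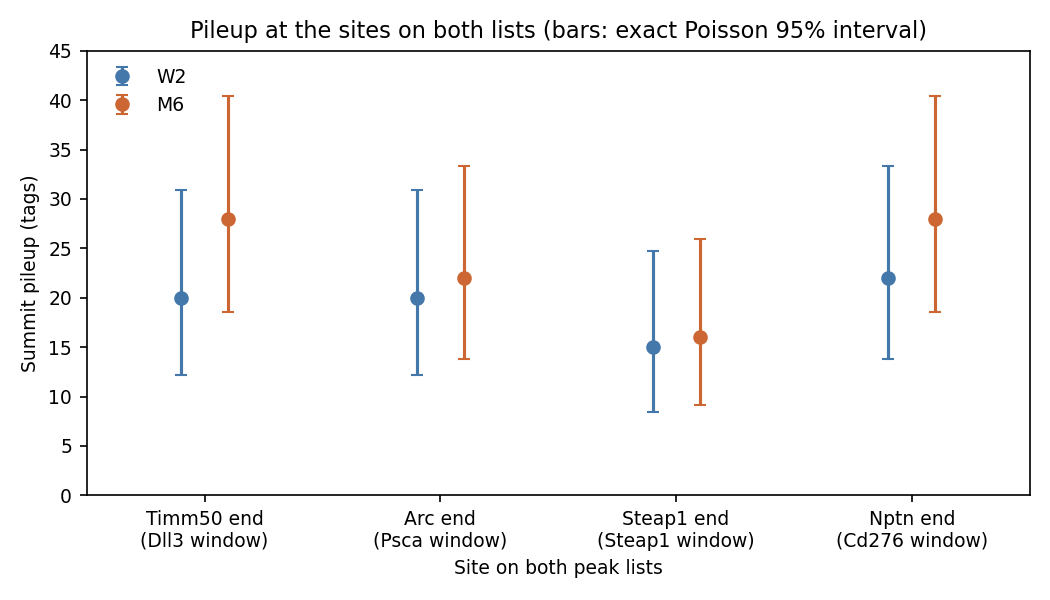
Points give the summit pileup in tags (vertical axis) at the 4 sites on both lists, with exact Poisson 95% intervals as bars. M6 lies above W2 at each site, by 1 tag at Steap1 and 8 tags at Timm50, and each pair of intervals overlaps. Pileups are not adjusted for library depth or local background.

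The absence of a W2 peak at Ncam1, Steap2 and Cd276 is set against the strength of their M6 peaks. Among M6 gene-end peaks with a −log10 q within 0.5 of the Ncam1 own-end peak, 9.12% (exact interval 7.28 to 11.3%) also had a W2 peak. The same share was 13.1% (10.9 to 15.7%) for Steap2, 9.36% (7.15 to 12%) for Cd276 and 9.27% (7.41 to 11.4%) for Steap1, which did have one. Most M6 gene-end peaks of this strength lacked a W2 counterpart genome-wide. The lowest pileup on the lists was 12 tags in W2 and 10 in M6, so a weaker signal at these gene ends in W2 would not be on the list.

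Local background around the members stayed under 2 times the library medians. It ran from 2.65 to 6.84 tags at the 18 M6 peaks, at most 1.94 times the library median of 3.52, and from 2.96 to 4.24 tags at the 4 W2 peaks, at most 1.23 times the median of 3.44. The lowest background of each list was 2.96 tags in W2 and 2.65 in M6. No read number was given. These values would give relative depth only if reads were handled alike in both libraries, which is not stated.

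The gene families of the members were counted as well. Among 25 relatives (Notch ligands, NCAM, SEZ6, Ly6, PSMA-like peptidase, STEAP and B7 genes), 2 had an own-end peak in W2 and 6 in M6, with 1 in both, beside 18.4% and 39.7% of all genes. The 4 strongest were Cd274, the gene of the checkpoint ligand PD-L1 (M6 only, −log10 q 13.7), Icosl, a costimulatory ligand (M6 only, 6.77), Dll4, an activating Notch ligand (M6 only, 5.69), and Jag1, another Notch ligand (5.20 in W2 and 4.39 in M6). Ly6e had a peak in W2 only (2.91). In the list's windows, 17 genes had more peaks in M6, 1 had fewer and 7 had as many. Their median rise was 1.09 peaks per 100 kb, against 0.86 over all genes. Windows of Ly6d, Lynx1 and Slurp1 overlap that of Psca.

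Other surface targets of both lineages were also counted. Of 8 other neuroendocrine targets, 0 had an own-end peak in W2 and 4 in M6: L1cam, a neural adhesion molecule (−log10 q 10.1), Cadm1, a synaptic adhesion molecule (9.40), Ret, a receptor tyrosine kinase (6.61), and Sstr2, the somatostatin receptor bound by neuroendocrine radioligands (5.49). Of 15 other epithelial targets, 4 had one in W2 and 7 in M6, with 4 in both. The all-gene shares are again 18.4% in W2 and 39.7% in M6. The strongest were the M6 peaks of Erbb3, a receptor of the EGF family (19.5), Slc44a4, a choline transporter (18.8, and 11.5 in W2), Nectin4, an adhesion molecule (14.1), and Slc39a6, a zinc transporter (13.4). The median rise per 100 kb was 0.95 in the neuroendocrine and 0.87 in the epithelial list.

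Regulators of these lineages were counted in the same way. Of 5 neuroendocrine regulators (Insm1, Neurod1, Foxa2, Pou3f2 and Sox2), 0 had an own-end peak in either library, and their windows held 0 W2 and 2 M6 peaks, both at Insm1. Of 5 luminal regulators, 0 had an own-end peak in W2 and 1 in M6 (Grhl2, −log10 q 5.10), and the windows held 5 W2 and 12 M6 peaks. The all-gene shares with an own-end peak were 18.4% in W2 and 39.7% in M6, and 5 genes are too few to tell either list from them. A window peak was present in W2 at 0 of 5 neuroendocrine and 3 of 5 luminal regulators (all genes 48.3%), and in M6 at 1 of 5 and 4 of 5 (all genes 74.4%). The window of Hoxb13, a prostate homeobox gene, had 0 in both.

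Markers of cell types were counted as a check of the label. Epithelial markers had own-end peaks at 3 of 6 genes in W2 (Epcam, Cdh1 and Cldn3) and 5 of 6 in M6, with 1 to 5 window peaks per gene in W2 and 4 to 9 in M6. Leukocyte (6 genes), NK-cell (4), endothelial (4) and fibroblast (4) markers had own-end peaks at 0 genes in both libraries. Their windows held 3, 2, 1 and 0 peaks in W2 and 6, 3, 6 and 3 in M6. For comparison, 18.4% of all protein-coding genes carried a peak at their ends on the W2 list, and 39.7% on the M6 list. Lists of 4 or 6 genes are too short to tell 0 from the W2 share. Absence of these cell types was not tested. Nerve and Schwann markers, of cells that can also carry NCAM1, were without an own-end peak in W2 (0 of 5), and 1 of them, Tubb3, had one in M6. Their windows held 0 to 1 peaks per gene in W2 and 0 to 9 in M6, 2 and 22 in all, and their part in the Ncam1 peaks was not tested.

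The genes most like a member were looked for around the members with the most M6 peaks, Dll3 and Psca with 4 each. The likeness was the distance over the numbers and highest −log10 q of window peaks in the 2 libraries, among genes of similar window length, and so rests on 1 library per time point. The nearest to Dll3 were its neighbour Timm50 (distance 0), Ascl5 and Jph4, and the nearest to Psca were its neighbours Jrk and Them6 (0) and A3galt2. The windows of Timm50, Jrk and Them6 hold the same peaks as those of the members, since the genes are adjacent.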

How the data were processed

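ATAC-seq peaks of 2 libraries, W2 and M6, were analysed; the members and gene lists were chosen with earlier results of these data known. Per the submitters' processing notes the tools were Trim Galore 0.5.0, Bowtie2, deepTools and SAMtools 1.4 with build mm10. No label names the peak caller, its threshold, or the treatment of duplicates and read ends. Peaks were deposited per library. For each, the authors deposited a score (not used), a fold (a linear ratio of summit to local background), −log10 values of p and q, and the summit. Of the peaks, 5735 of 5765 (W2) and 22570 of 22594 (M6) lay on chromosomes 1 to 19, X or Y and were kept. Read depth is not given.

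Genes came from RefSeq (GRCm38.p6). An own end is 1 kb on either side of either annotated gene end, since strand was at hand for only 5 members. The named genes are the 8 members with their strongest and own-end peaks, neighbours with a peak at their end, the 4 strongest genes of each list, and the 3 genes most like the member with the most M6 peaks. Some genes of the lists are not reported here and were left out of the lists' counts. Pileup and background were solved from the fold, taken as (pileup + 1)/(background + 1), and the −log10 p as a Poisson upper tail. A whole pileup was found for 100% of both lists within 0.001, and the step was tested on simulated data. Intervals are exact at 95%, cover counting error only and treat tags and peaks as independent. Window widths, ranking, thresholds and assignment of peaks were varied. Python 3.11.15, pandas 2.3.3, numpy 2.4.6, SciPy 1.17.1 and matplotlib 3.10.9 were used.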

Additional observations from a re-analysis of the deposited data

How the results depend on the processing

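Each time point had 1 library, so a difference between W2 and M6 cannot be told apart from a difference between libraries. No paired analysis was possible because each time point had 1 library and no result came from a test. Of 48 alternative values, 21 kept their direction and stayed within 1.5 times the value reported, and 4 reversed; where a value moved, the cause was not tested beyond the fewer peaks or genes that a setting leaves.

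The rise in neuroendocrine windows (8 peaks) was 5 with 10 kb on either side, 5 with a −log10 q of at least 5, 5 without Ncam1, 3 with the member as nearest gene, 0 with equal numbers of peaks by −log10 q and -1 by fold. The rise in adenocarcinoma windows (6) was 3 with 10 kb, 2 with the member as nearest gene, -1 with equal numbers by −log10 q and -2 by fold. Neuroendocrine targets with more M6 peaks (3) were 1 with equal numbers by −log10 q, 0 by fold and 1 by nearest gene. Adenocarcinoma targets with more M6 peaks (4) were 0, 0 and 2 under the same settings. The difference between the groups in rise per 100 kb (0.18) was -0.067 with 10 kb, 0.64 with 100 kb, 0.071 with a −log10 q of at least 5, 0.11 by nearest gene and 0.91 without Ncam1. It was 0.17 with equal numbers by −log10 q and 0.19 by fold, where neither group's peak number rose. With M6 limited to equal numbers, 1 of the 4 W2 peaks had a counterpart.

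Own-end counts were varied after seeing the data. Neuroendocrine targets with an M6 own-end peak (1) were 2 at 5 kb, and 0 with equal numbers or a −log10 q of at least 5. Adenocarcinoma targets (3) were 4 at 5 kb, 0 with equal numbers and 1 with a −log10 q of at least 5. The lists hold no signal under their thresholds, so a missing peak is not a closed region.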
